A study of Mus musculus with 18 samples.

Results

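Olig1, Olig2, Sox2, Sox10, Nkx2-2, Cspg4 and Pdgfra are the transcription factors and surface proteins by which oligodendrocyte precursor cells, the glial progenitors of the brain, are usually recognized. The genes were taken by their symbols, and all 7 of them were found among the 23284 RefSeq genes of each deposited table. They were followed through 9 groups of subcutaneous mouse tumors, measured by RNA-seq. GL261 glioma, Lewis lung carcinoma (LLC) and B16F10 melanoma were grown in C57BL/6 (B6) mice, which have a full immune system, and GL261 also in ICR scid mice, which lack functional B and T lymphocytes; the labels give an age of 12 weeks for the hosts. Each tumor is a transplanted cell line, so its cells come from 1 line and its blood vessels, fibroblasts and immune cells from the host. Tumors were left untreated or given cyclophosphamide (CPA), an alkylating prodrug, at 140 mg/kg every 6 days (CPA/6d) or, in scid mice only, also every 9 days (CPA/9d). Tumors were collected for RNA on day 6 after their final dose. GL261 tumors had then had 2 doses and LLC and B16F10 tumors 3, so the dose number and the tumor model cannot be told apart. The labels describe the libraries of B6 tumors as strand-specific, while those of scid tumors conflict, naming an unstranded library in one field and a strand-specific protocol in another, so host and library kit cannot be told apart when levels are set side by side.

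Each group was 2 pools of tumor RNA, with 3 to 12 tumors in a pool and 1 library from each pool. The deposited tables hold group means only, and each mean was split into the whole reads of its 2 pools. The pools, called deeper and shallower here by their totals, had 6169217 to 15979644 reads over genes. Levels are normalized reads, that is reads per 10000000 reads after TMM scaling, shown pool by pool or as a mean ± SD of the 2 pools. For changes, limma with a trended variance was run on log2(normalized reads + 1), and log2 fold changes are given ± their standard error; the added read understates the change of genes with few reads. Calls, higher or lower, needed a change of more than 2-fold and an unadjusted p under 0.001, and p-values were adjusted across every gene tested in a comparison (Benjamini-Hochberg). The p-values rest on the spread between the 2 pools of a group, and nothing ties these pools to those of another group. For each gene limma draws this spread toward that of genes of like level. A standard error can therefore be smaller or larger than the gene's own pools would give. In bulk tumor RNA, fewer cells of a type and less RNA per cell cannot be told apart.

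In the developing brain and cord, Olig2 and Olig1 are basic helix-loop-helix factors that set up the oligodendrocyte lineage, and Nkx2-2 is a homeodomain factor that works beside them. Sox10 is an HMG-box factor needed for oligodendrocytes to mature and also acts in the neural crest, from which melanocytes and Schwann cells arise, while Sox2 is the HMG-box factor of neural stem and progenitor cells. At the surface, Cspg4 encodes the NG2 proteoglycan, which pericytes also carry, and Pdgfra encodes the PDGF receptor through which precursor cells are driven to divide and which many fibroblasts also carry.

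The 7 genes lie on 6 chromosomes in the mm9 genome, and Olig2 and Olig1 are neighbors. Olig2 (NM_016967, chr16:91225795-91228922, plus strand) ends 41091 bases before the start of Olig1 (NM_016968, chr16:91270014-91272184, plus strand). Sox2 (NM_011443, chr3:34548927-34551383, plus strand) is a single exon that lies inside the long noncoding gene Sox2ot on the same strand, so reads of the pair could be shared. Nkx2-2 (chr2:147003282-147019979, minus strand) overlaps 2 genes of the other strand, Nkx2-2as and 6430503K07Rik, so without strand their reads could not be told apart. Sox10 (NM_011437, chr15:78985343-78994920, minus strand), Cspg4 (NM_139001, chr9:56712911-56747677, plus strand) and Pdgfra (chr5:75548316-75594229, plus strand) overlap no other annotated gene. The 250 bases before the RefSeq start are printed for Olig2, Sox2 and Nkx2-2, which were called lower with CPA/6d in GL261 tumors of both hosts. They are also printed for Pdgfra, which was not called there. Capitals mark matches, on either strand, to CAGCTG (an E-box of helix-loop-helix factors), ACAATG or ACAAAG (letters bound by SOX factors) and CACTTNA (letters bound by NK2 factors).
Olig2: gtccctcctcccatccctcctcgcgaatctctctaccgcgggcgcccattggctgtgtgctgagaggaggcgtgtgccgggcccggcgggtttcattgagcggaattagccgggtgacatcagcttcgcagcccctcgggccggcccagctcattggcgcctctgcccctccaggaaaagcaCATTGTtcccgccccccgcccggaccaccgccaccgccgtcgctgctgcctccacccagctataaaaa
Sox2: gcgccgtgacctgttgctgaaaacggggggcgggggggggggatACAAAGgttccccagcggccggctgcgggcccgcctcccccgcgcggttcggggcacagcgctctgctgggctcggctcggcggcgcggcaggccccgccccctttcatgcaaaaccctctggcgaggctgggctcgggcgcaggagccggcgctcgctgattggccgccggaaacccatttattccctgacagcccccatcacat
Nkx2-2: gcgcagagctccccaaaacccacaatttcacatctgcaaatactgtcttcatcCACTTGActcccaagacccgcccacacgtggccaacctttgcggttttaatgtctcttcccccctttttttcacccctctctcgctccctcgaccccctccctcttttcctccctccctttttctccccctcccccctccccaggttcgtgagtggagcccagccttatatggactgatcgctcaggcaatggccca
Pdgfra: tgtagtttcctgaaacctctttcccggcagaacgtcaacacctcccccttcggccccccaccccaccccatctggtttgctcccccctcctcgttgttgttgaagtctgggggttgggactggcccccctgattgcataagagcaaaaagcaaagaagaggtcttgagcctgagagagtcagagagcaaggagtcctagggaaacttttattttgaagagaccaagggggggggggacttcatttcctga
RefSeq's promoter table (build GRCm38.p6) held 5 of the 7 genes, and each of these 250 bases matched mm9 exactly, at chr16:91225545-91225794 for Olig2, chr3:34548667-34548916 for Sox2, chr2:147012139-147012388 for Nkx2-2 and chr5:75548026-75548275 for Pdgfra. The Nkx2-2 window lies inside the span given above for Nkx2-2, so it precedes a start within that span and not its outer end. The Olig2 window held ACAATG on the minus strand 68 bases before the start, the Sox2 window ACAAAG on the plus strand at 206 bases and the Nkx2-2 window CACTTNA on the gene's own strand, and no window held CAGCTG. Among 32851 windows of the same length, 25.2% held ACAATG or ACAAAG, 10.1% CACTTNA and 13% CAGCTG, so such matches are common. The windows of Pdgfra and Cspg4 held none of these letters.

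Untreated GL261(B6) tumors expressed all 7 genes, with Olig1 and Sox10 at the top. Per kilobase of exon, levels were 2688 ± 122 normalized reads for Olig1, 2139 ± 20.7 for Sox10, 1605 ± 79.8 for Olig2 and 1322 ± 64.4 for Sox2 (SD, n = 2 pools). Both surface genes were lower on this scale, at 329 ± 17.8 for Cspg4 and 214 ± 28.0 for Pdgfra, and Nkx2-2 was lowest at 65.1 ± 3.89. Untreated GL261(scid) tumors gave the same order, from 4420 ± 346 for Olig1 to 31.7 ± 2.87 for Nkx2-2. All 7 genes were thus counted in GL261 in both hosts.

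LLC and B16F10 tumors held almost no reads of Olig1, Olig2 and Sox2. Olig1 had 4443 and 4014 reads in the 2 untreated GL261(B6) pools, against 2 and 0 in LLC and 2 and 1 in B16F10. Olig2 had 3185 and 2515 reads in GL261(B6), against 1 and 1 in LLC and 1 and 0 in B16F10. Sox2 had 2643 and 2090 reads in GL261(B6), 0 in both LLC pools and 1 in each B16F10 pool. Per effective read, Olig1 was 3287-fold higher in GL261(B6) than in B16F10 (95% exact interval of the counts, 1124 to 15940) and 6320-fold higher than in LLC (1749 to 52196). For Olig2 these ratios were 6645 (1192 to 262527) against B16F10 and 4260 (1179 to 35183) against LLC. Sox2 was 2759-fold higher than in B16F10 (763 to 22789) and at least 2358-fold higher than in LLC, taking 3 reads over the group as the floor for a count of 0. Intervals and floors cover counting error only.

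Sox10 was shared by the glioma and the melanoma. It stood at 5842 and 5762 normalized reads in untreated GL261(B6) pools and at 5209 and 5586 in untreated B16F10 pools, a log2 difference of 0.11 ± 0.06 (standard error) that did not pass the test (adjusted p = 0.16, limma). LLC pools had 2 and 6 reads of it, 1576-fold less than GL261(B6) by summed reads (95% interval, 799 to 3651). B16F10 thus carried Sox10 without Olig1, Olig2 or Sox2, and the melanocyte genes of a fixed list of 11, which include Tyrp1 and Dct, summed there to 234966 to 259653 normalized reads against 2220 to 2305 in GL261(B6).

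The other 3 genes were graded between the models. Nkx2-2 stood at 179 and 195 normalized reads in untreated GL261(B6) pools and at 71.6 and 61.0 in LLC pools, while all 4 B16F10 pools, treated ones included, had 0 reads, which puts untreated GL261(B6) at least 105-fold and LLC at least 38.5-fold above untreated B16F10. Cspg4 went from 2754 and 2551 in GL261(B6) to 151 and 129 in B16F10 and 41.6 and 36.9 in LLC, and each step lay beyond the spread of the pools. Pdgfra was nearest between models, with 1575 and 1309 in GL261(B6), 730 and 816 in LLC, and 70.8 and 45.9 in B16F10. Pdgfra is also a fibroblast gene, and a fibroblast list holds 10 genes, collagens among them and none at 0. They summed to 38510 to 44059 in GL261(B6), 22846 to 23889 in LLC and 13357 to 13383 in B16F10. Most of the LLC sum was Col3a1, which averaged 18186 in LLC and 4398 in B16F10. Dcn, Lum, Dpt and Twist2 were also lower in B16F10 than in LLC, and Fap, Pi16 and Col5a1 were not called. Col1a1 (1218 in LLC, 4233 in B16F10) and Col1a2 (806 and 3606) went the other way. The part of fibroblasts in the Pdgfra levels was not tested.

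Of the 7 genes, 6 were called higher in untreated GL261(B6) than in LLC, where 18.3% of all genes tested were called higher, and the log2 difference of Pdgfra was 0.90 ± 0.10. Against B16F10 6 were again called higher, all but Sox10, where 20.4% of genes tested were. Between B16F10 and LLC, Sox10 (log2 difference 10.15 ± 0.53) and Cspg4 (1.81 ± 0.22) were higher in B16F10, and Nkx2-2 (-6.07 ± 0.39) and Pdgfra (-3.73 ± 0.20) were lower, against a background of 18.5% higher and 18% lower. The differences of genes with almost no reads depend on the 1 read added, and the count ratios above are the better guide. The filter asked for reads in at least 2 libraries, so without the deeper GL261(B6) pool 2 genes were called higher than in LLC and 2 than in B16F10, and without the shallower pool 3 and 2. Between B16F10 and LLC likewise, leaving out either B16F10 pool left 1 gene called higher, and leaving out either LLC pool left 1 called lower.

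**Figure D1:**
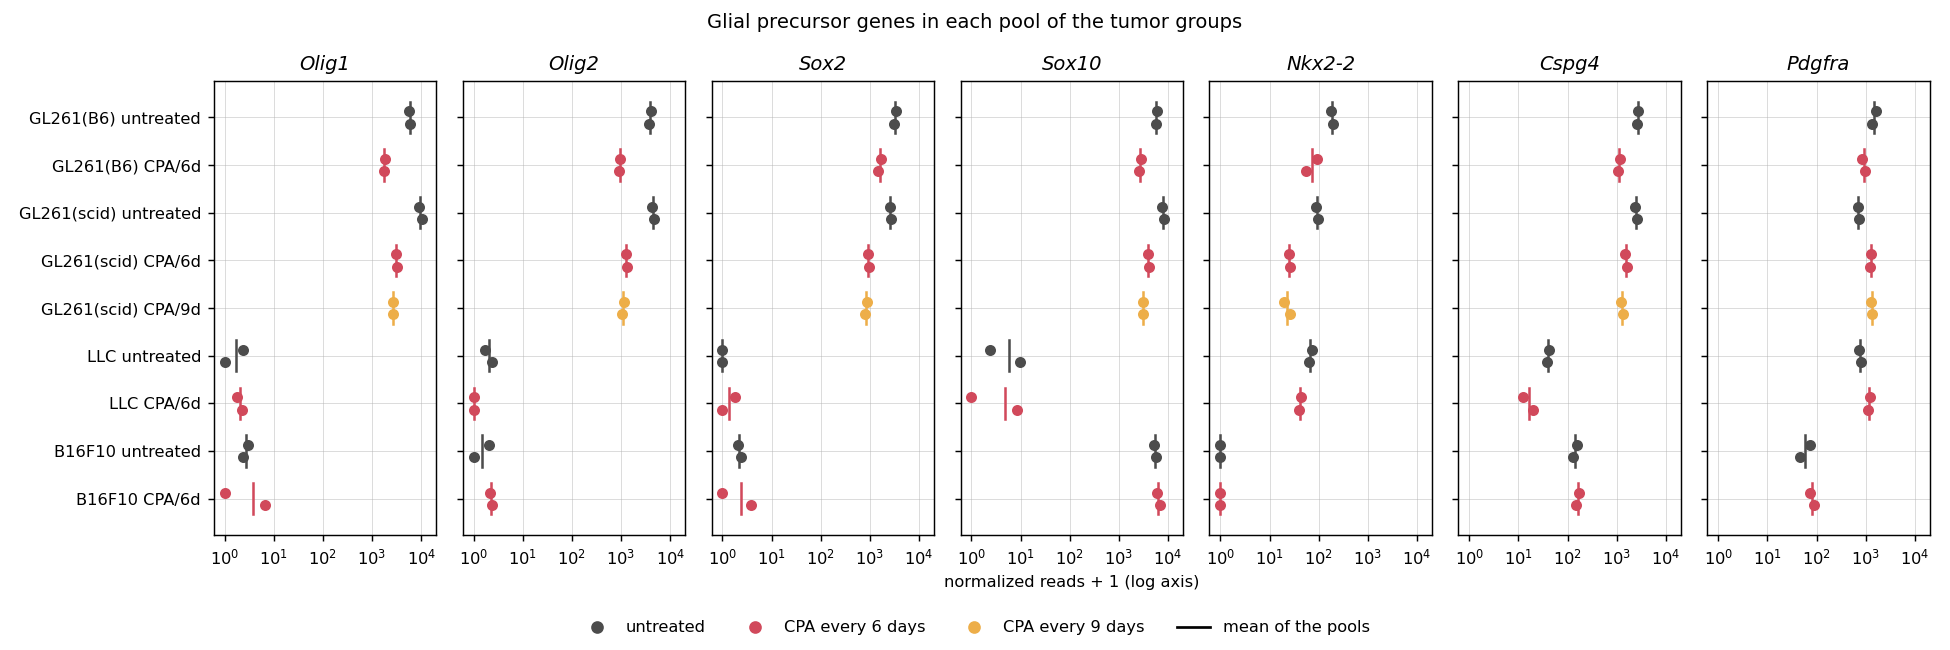
Normalized reads plus 1 (log axis) of each gene in the 2 pools (points) of the 9 tumor groups, with the mean of the pools as a line. Olig1, Olig2 and Sox2 average 817 or more in every GL261 group and 2.85 or less in LLC and B16F10, while Sox10 is as high in B16F10 (5397 untreated) as in GL261(B6) (5802).

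With CPA/6d, 6 of the 7 genes were called lower in GL261(B6) tumors, where 6.49% of all genes tested were called lower and 17.6% higher. Olig2 fell most, from 4049 and 3774 normalized reads in the untreated pools to 967 and 924 in the treated ones, which is -2.05 ± 0.07 in log2 (adjusted p = 1.09e-10, limma). Its neighbor Olig1 fell from 5648 and 6023 to 1825 and 1721 (-1.72 ± 0.06, adjusted p = 3.38e-10, limma). In both genes the treated pools lay far below the untreated ones, with 24.2% of the untreated mean left for Olig2 and 30.4% for Olig1. Nkx2-2 fell from 179 and 195 to 90.2 and 53.7 (-1.41 ± 0.22, adjusted p = 1.00e-04, limma), and its treated pools were the most unlike each other of the 7 genes. The antisense Nkx2-2as stood at 54.7 and 52.5 in untreated and 16 and 13.7 in treated pools, and whether the counting used strand is not given in the sources used here.

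Sox10 went from 5842 and 5762 normalized reads to 2802 and 2596 (-1.10 ± 0.06, adjusted p = 1.25e-08, limma) and Sox2 from 3360 and 3136 to 1673 and 1474 (-1.05 ± 0.07, adjusted p = 9.91e-08, limma). Of these, 46.5% and 48.4% of the untreated means were left, so both SOX genes kept a larger share than either Olig gene. Sox2ot, which contains Sox2, had 0.0715 and 0.0737 reads for each Sox2 read in untreated pools and 0.0544 and 0.0543 in treated ones, and in scid mice 0.0534 and 0.0554 in untreated and 0.0752 and 0.0668 in CPA/6d-treated ones. Cspg4 fell from 2754 and 2551 to 1151 and 1070 (-1.26 ± 0.07, adjusted p = 1.14e-08, limma). Pdgfra was at 1575 and 1309 in untreated and 854 and 982 in treated pools, a log2 fold change of -0.65 ± 0.10 that did not reach 2-fold (adjusted p = 7.03e-05, limma), although the pools did not overlap. Markers of other cells moved in the same tumors: the 10 macrophage genes, none at 0, summed to 6598 to 7011 normalized reads in untreated and 40151 to 43692 in treated pools, and the 10 cell cycle genes to 26125 to 28627 and 14517 to 15213, and their part in the falls was not tested.

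Which of these calls hold depends most on the fold of Sox2 and on the spread used. Sox2 slipped under 2-fold without the deeper untreated pool (log2 fold change -0.998) or the shallower treated pool (-0.956). In a fit over all 12 B6 libraries, Olig2 and Cspg4 kept their call. Olig1, Sox2, Sox10 and Nkx2-2 did not, with the same fold changes and wider errors. That fit takes in LLC and B16F10 pools with 0 to 6 reads of some of these genes. With 10 reads added in place of 1, a setting chosen after seeing the data, it called all 6.

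The unequal falls changed the proportions of these transcripts within a pool. For each read of Sox10 there were 0.693 and 0.655 reads of Olig2 in the untreated GL261(B6) pools and 0.345 and 0.356 in the treated pools. In scid mice this ratio went from 0.566 and 0.584 to 0.319 and 0.316 with CPA/6d and to 0.359 and 0.340 with CPA/9d, so in each host treated and untreated pools were apart. The ratio of Sox2 to Sox10 overlapped between untreated (0.575 and 0.544) and treated (0.597 and 0.568) pools in B6 mice, and was lower in the treated pools in scid mice, with 0.340 and 0.325 against 0.230 and 0.230. The ratio of Pdgfra to Cspg4 moved the other way, from 0.572 and 0.513 to 0.741 and 0.918 in B6 mice. With CPA/6d in scid mice it went from 0.287 and 0.284 to 0.874 and 0.733. In B6 mice Pdgfra itself fell, with 63.7% of the untreated mean left against 41.9% for Cspg4, while in scid mice it rose.

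**Figure D2:**
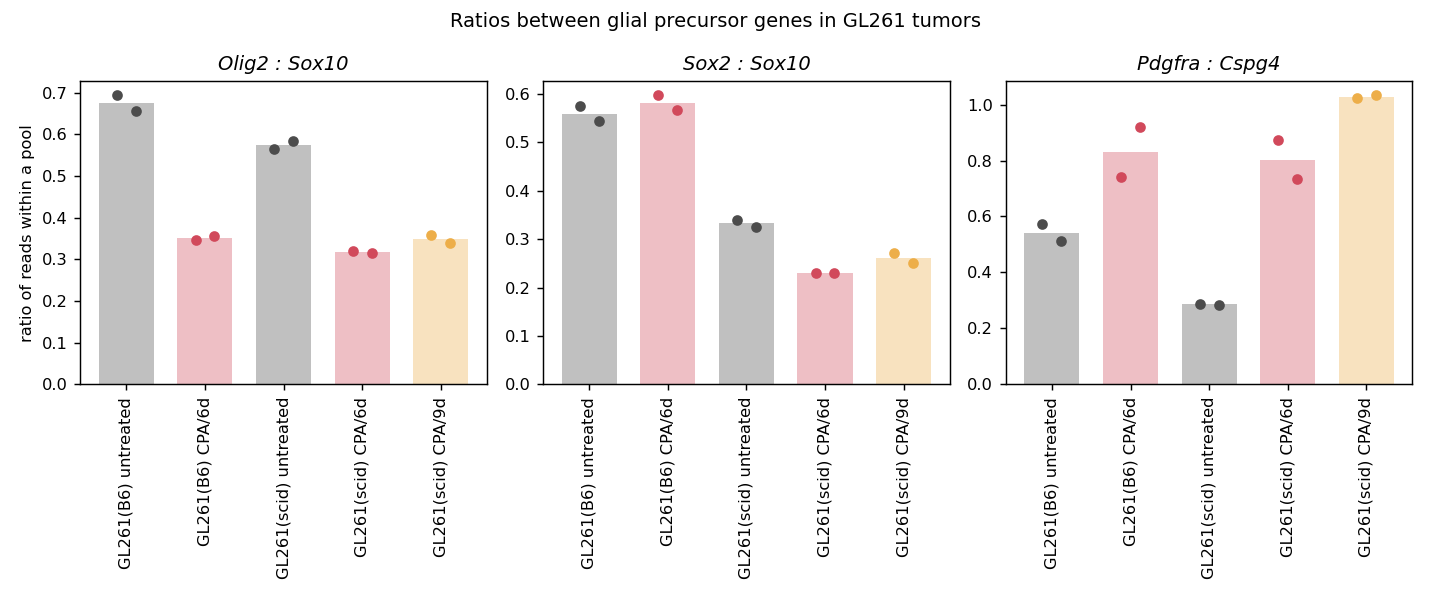
Reads of 1 gene for each read of another within a pool (points) and their mean (bars), in the 5 GL261 groups. Olig2 to Sox10 is lower in every treated group, Sox2 to Sox10 overlaps in B6 mice (0.560 and 0.582 on average) but not in scid mice (0.333 and 0.230 with CPA/6d), and Pdgfra to Cspg4 is higher in every treated group.

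In GL261(scid) tumors the Olig genes, Sox2 and Nkx2-2 fell with CPA/6d, while Sox10 and Cspg4 stayed within 2-fold and Pdgfra moved up. Calls were 4 lower and 0 higher (6 of the 7 genes have an unadjusted p under 0.001 and a negative sign, and Pdgfra a positive one), against 8.14% lower and 18.9% higher among all genes tested. Olig2 fell from 4267 and 4707 normalized reads to 1239 and 1291 (-1.82 ± 0.05, adjusted p = 2.60e-09, limma) and Olig1 from 9064 and 10126 to 3068 and 3194 (-1.61 ± 0.06, adjusted p = 5.82e-09, limma). Sox2 fell from 2567 and 2621 to 894 and 942 (-1.50 ± 0.05, adjusted p = 3.56e-09, limma). Nkx2-2 fell from 85.2 and 96.9 to 23.9 and 25.0 (-1.85 ± 0.18, adjusted p = 6.74e-06, limma), while Nkx2-2as was at 10.9 and 12.7 in untreated and 10.1 and 11.2 in treated pools of these libraries, whose labels conflict on strand. Every treated pool of these genes lay below both untreated pools.

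Sox10 went from 7543 and 8067 to 3883 and 4092 in the scid host, a log2 fold change of -0.97 ± 0.05 just short of 2-fold that passed it without the deeper untreated pool (-1.02) or the shallower treated pool (-1.01). Cspg4 went from 2377 and 2547 to 1479 and 1643 (-0.66 ± 0.06). Pdgfra went from 681 and 724 to 1293 and 1204 (0.83 ± 0.06, adjusted p = 5.79e-07, limma), short of 2-fold but with both treated pools above both untreated ones.

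With the longer interval 5 genes were called lower and 0 higher against untreated GL261(scid) tumors (10.7% lower and 20.4% higher among all genes tested). Sox10 joined Olig1, Olig2, Sox2 and Nkx2-2, at 3158 and 3092 normalized reads with CPA/9d (-1.32 ± 0.05, adjusted p = 4.96e-09, limma). Olig2 was at 1134 and 1051 (-2.04 ± 0.06), Olig1 at 2697 and 2618 (-1.85 ± 0.06), Sox2 at 857 and 778 (-1.67 ± 0.06) and Nkx2-2 at 18.5 and 25.0 (-2.03 ± 0.21). Cspg4 was at 1227 and 1318 (-0.95 ± 0.06) and would be called without the deeper untreated pool or the shallower treated pool (-1.0 in both cases). Pdgfra was at 1254 and 1361 (0.89 ± 0.06). Both schedules share the untreated pools, and set directly against CPA/6d, CPA/9d gave no called gene among the 7 at 2-fold or 1.5-fold (limma), where 0.0201% of all genes were lower and 0.718% higher at 2-fold, and 0.128% and 1.67% at 1.5-fold; 2 of the 7 had an unadjusted p under 0.001, Sox10 (-0.35 ± 0.06, adjusted p = 0.0031) and Cspg4 (-0.29 ± 0.07, adjusted p = 0.018).

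**Figure D3:**
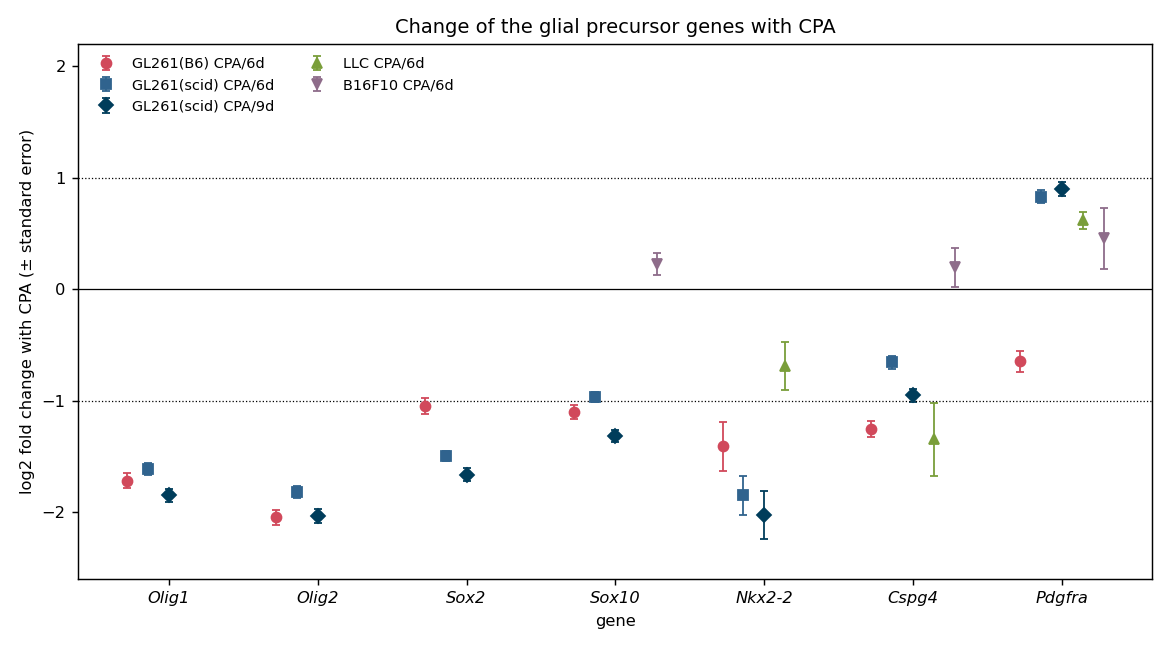
Log2 fold change with CPA (± standard error) of each gene in the 5 comparisons of treated with untreated tumors, with dotted lines at 2-fold and no point where too few reads were counted for a test. Olig1, Olig2, Sox2, Sox10 and Nkx2-2 lie at -0.97 or below in every GL261 comparison, and Pdgfra is at -0.65 in GL261(B6) but between 0.45 and 0.89 in the other 4.

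Pdgfra was the 1 gene of the 7 whose response was called different between the hosts. The CPA/6d response in B6 mice minus that in scid mice was -1.48 ± 0.13 in log2 (adjusted p = 5.01e-05, limma interaction term over 8 libraries), called lower where 1.08% of all genes were, and it lay between -1.34 and -1.61 whichever pool was left out. All treated pools were below the untreated ones in B6 mice and above them in scid mice. The other 6 genes were not called. The difference was 0.45 ± 0.09 for Sox2 (adjusted p = 0.0076), which lost a larger share in scid mice, and -0.60 ± 0.10 for Cspg4 (adjusted p = 0.0020), which lost a larger share in B6 mice. It was -0.10 ± 0.09 for Olig1, -0.22 ± 0.09 for Olig2, -0.14 ± 0.08 for Sox10 and 0.44 ± 0.32 for Nkx2-2, with adjusted p of 0.10 to 0.46 (limma). Lists of host cells moved unequally as well: the 10 fibroblast genes summed to 38510 to 44059 normalized reads in untreated and 125057 to 132277 in treated GL261(B6) pools, and to 90353 to 105609 and 365937 to 446768 in GL261(scid) with CPA/6d. Of the 9 pericyte and smooth muscle genes, 0 were called in GL261(B6) and 5 were higher in GL261(scid), where 17.6% and 18.9% of all genes were called higher, among them Rgs5 (1.72 ± 0.11) and Notch3 (1.69 ± 0.10). The part of these cells in the Pdgfra and Cspg4 values was not tested.

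In LLC and B16F10 tumors none of the 7 genes was called with CPA/6d. Only 3 of them had enough reads for a test in each model, the background was 0.946% lower and 2.02% higher in LLC, and it was 2.83% and 6.51% in B16F10. In LLC, Pdgfra went from 730 and 816 normalized reads to 1242 and 1129 (log2 fold change 0.62 ± 0.07, adjusted p = 3.65e-04, limma), and Nkx2-2 from 71.6 and 61.0 to 43.2 and 38.2 (-0.69 ± 0.21, adjusted p = 0.037). Cspg4 went from 41.6 and 36.9 to 11.4 and 19.1 (-1.35 ± 0.33) with a p of 0.0019 that missed the threshold, and it was called without the shallower treated pool (-1.70) and in the fit over all B6 libraries. At an unadjusted p under 0.05, limma gave all 3 of the tested genes in LLC. In the same LLC tumors, 4 of the 9 pericyte and smooth muscle genes were called lower, Myh11 (-1.61) and Mcam (-1.40) among them, and 5 of the 10 fibroblast genes higher, Dpt (2.28) and Fap (1.70) among them. Their part in the Cspg4 and Pdgfra values was not tested.

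B16F10 tumors kept Sox10 under CPA/6d, at 5209 and 5586 normalized reads in untreated and 5853 and 6794 in treated pools (0.23 ± 0.10, adjusted p = 0.11, limma). Cspg4 was at 151 and 129 against 173 and 148 (0.19 ± 0.18) and Pdgfra at 70.8 and 45.9 against 72.1 and 85.5 (0.45 ± 0.27), and for 0 of the 3 was the unadjusted p under 0.05 (limma). Reads of Olig1, Olig2 and Sox2 stayed at 0 to 4 in each pool of both models, as did those of Nkx2-2 in B16F10 at 0, so whether CPA moved them there was not detectable at this depth.

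Set against these models, the GL261(B6) response was lower for Pdgfra by -1.27 ± 0.14 in log2 relative to LLC (adjusted p = 2.97e-05), where 5.7% of all genes were called lower, and for Cspg4 by -1.45 ± 0.16 (adjusted p = 1.59e-04) and Sox10 by -1.33 ± 0.12 (adjusted p = 6.31e-05) relative to B16F10, where 4.68% were lower and 6.03% higher (limma interaction terms). Olig2 was also called relative to B16F10 (-2.73 ± 0.44), a value that rests on 0 to 1 reads in the B16F10 pools, was -2.14 with 10 reads added and lost its call when any 1 of the 4 GL261(B6) pools was left out. The Sox10 difference lost its call in the fit over all B6 libraries. In treated tumors, GL261(B6) had less Sox10 than B16F10 (-1.23 ± 0.10, adjusted p = 8.26e-05, limma), the only gene of the 7 called lower in that comparison (17.1% of all genes), and 6 were called higher (23.3%). That Sox10 call was lost in the fit over all B6 libraries. Against treated LLC 5 were called higher (23.2%), while Nkx2-2 (0.76 ± 0.28) and Pdgfra (-0.37 ± 0.09) were not called. Without either treated GL261(B6) pool, 2 genes were called higher than in B16F10 and 1 than in LLC, since the filter asks for reads in at least 2 libraries.

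Other genes of the glial precursor program were taken from fixed lists. Among 16 further transcription factors, 10 had enough reads in GL261(B6) tumors, and 3 fell and 3 rose with CPA/6d, where 6.49% of all genes tested were called lower and 17.6% higher. Myt1, a zinc finger factor of the lineage, fell from 850 to 99.3 normalized reads (log2 fold change -3.08, adjusted p = 1.45e-10, limma), and Sox8, a close relative of Sox10, from 427 to 54.1 (-2.98). Sox9, which precedes Sox10 in glial development, rose from 3.93 to 45.8 (3.45) and Id2, an inhibitor of helix-loop-helix factors, from 173 to 1120 (2.69). The list as a whole had a median log2 fold change of 0.02, against -1.26 for the 7 genes and -0.02 for all genes tested. In GL261(scid) tumors 6 of 11 rose and 3 fell with CPA/6d (18.9% and 8.14% of all genes tested), Myt1 (-2.98) and Sox8 (-1.78) among the latter.

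Of 16 further surface and secreted genes, 12 had enough reads in GL261(B6) and 7 fell with CPA/6d, with a median of -1.67 and 0 called higher, against 6.49% lower and 17.6% higher among all genes tested. Gpr17, a receptor of precursors on their way to oligodendrocytes, fell from 3640 to 505 normalized reads (-2.85, adjusted p = 5.09e-11, limma), and Bcan, the matrix proteoglycan brevican, from 1838 to 323 (-2.51). Lhfpl3 (-2.36) and Pcdh15 (-2.23) fell as well. In GL261(scid) 7 of 14 fell and 2 rose, against 8.14% and 18.9% of all genes. Among 15 genes of myelinating oligodendrocytes, 13 had enough reads in GL261(B6) and 10 fell (median -2.08), led by the myelin glycoprotein gene Omg (-4.92) and by Gm98 (-3.01), Bcas1 (-2.78) and Cldn11 (-2.77), and 10 of 13 fell in GL261(scid) (median -2.10). Of 10 cell cycle genes, 4 fell in GL261(B6) and 8 in GL261(scid).

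**Figure D4:**
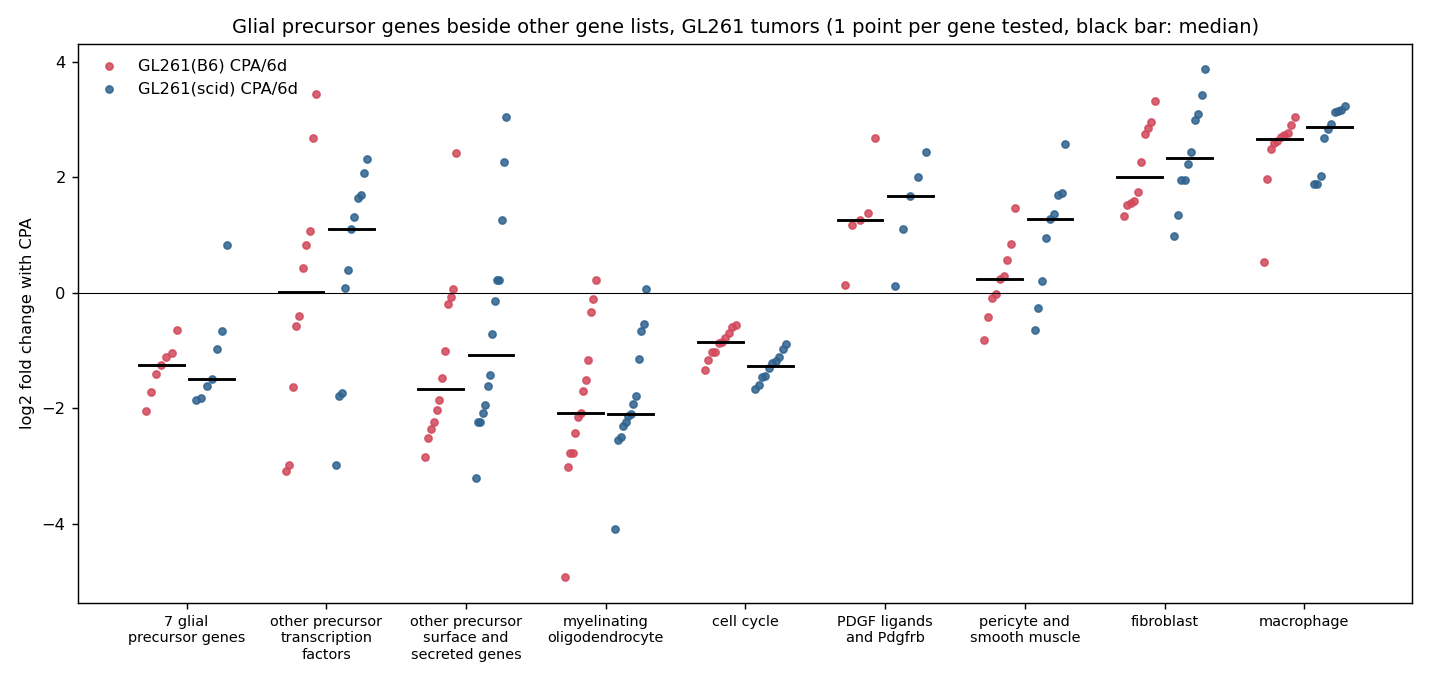
Log2 fold change with CPA/6d of every tested gene (points) of 9 lists in GL261(B6) and GL261(scid) tumors, with the median of each list as a bar. The 7 glial precursor genes have medians of -1.26 and -1.50, the myelinating oligodendrocyte genes -2.08 and -2.10, and the fibroblast genes 2.01 and 2.34.

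Of the 5 other genes of the PDGF family, 4 were called higher with CPA/6d in GL261 tumors of both hosts, where 17.6% (B6) and 18.9% (scid) of all genes tested were. In GL261(B6), Pdgfc (from 56.3 to 360.0 normalized reads, log2 fold change 2.68), Pdgfb (1.39), Pdgfd (1.26) and the receptor gene Pdgfrb (1.17) were called higher with CPA/6d, and Pdgfa, the ligand best known for acting on precursor cells, averaged 184 in untreated and 202 in treated pools (0.13, not called). In GL261(scid) the same 4 were called, Pdgfc by 2.44 and Pdgfb by 2.00. In LLC, Pdgfc rose (1.24) and Pdgfb fell (-1.65), where 2.02% of all genes were called higher and 0.946% lower. Of the 9 hedgehog pathway genes, which pattern Olig2 and Nkx2-2 in the embryo, Gli2 was the one called in GL261(B6) (1.53), and Gli1 (2.36) and Gli2 (2.34) were among those that rose in GL261(scid), while Shh had at most 0.625 normalized reads on average in any group.

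Over the 12 libraries of B6 tumors, Olig1, Olig2 and Sox2 followed each other most closely, with Pearson's r of 0.996 for Olig1 with Sox2, 0.987 for Olig1 with Olig2 and 0.988 for Olig2 with Sox2 on the log2 scale. These correlations are set by the difference between tumor models and share the libraries' depth, so they are a description. Sox10 was less like them, with r of 0.492 to Olig1, and Nkx2-2 was most like Pdgfra among the 7 genes (0.973). Among 14507 genes compared, those most like each were Sox2, Foxl2 and Slc47a2 for Olig1, and Reln, Pnma5 and Prss42 for Olig2, with r of 0.992 to 0.997. For Sox2 they were Olig1, Lrrtm3 and Impg1 (0.993 to 0.996). For Sox10 they were Cdh19, Tmem136 and Ccdc40 (0.990 to 0.993), and for Cspg4 Bcas1, Tmod2 and Pcdh17 (0.985 to 0.990). For Nkx2-2 they were Gatm, Phactr4 and 3110039M20Rik (0.995 to 0.996), and for Pdgfra 1300014I06Rik, Neat1 and Arntl2 (0.992 to 0.995). Over the 6 scid libraries the latter 3 had r of -0.70, -0.37 and -0.85 with Pdgfra, so that likeness was not seen there. Lrrtm3 had r of 0.28 with Sox2 and Slc47a2 0.80 with Olig1, and the other genes named as most like a member had 0.897 to 0.999 with their partners. With CPA/6d in scid mice Nkx2-2 and Pdgfra moved in opposite directions, from 91.0 to 24.4 and from 703 to 1248 normalized reads on average.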

How the data were processed

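RNA-seq was made from pooled tumor RNA, 2 pools in each of 9 groups, and all 18 libraries were used. Per the submitters' processing notes and the study's methods, reads were mapped to mm9 with TopHat2 (version 2.0.13), counted over RefSeq genes and normalized with DESeq. The deposited signal is the authors' mean of DESeq-normalized reads over the 2 pools of a group, and it was split into the whole reads of each pool, with an exact solution for 100% of the genes with reads. Columns of the authors' own comparisons (ratios, fold changes and p-values) were not used. Which pool number is the deeper one is not known, so tumors per pool could not be tied to libraries. The headers of the LLC and B16F10 tables name another CPA dose than the labels, and the dose of the labels is given.

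Reads were scaled by TMM (30% of ratios and 5% of levels trimmed) over all libraries to reads per 10000000. A gene was tested if 2 or more libraries held the equivalent of 10 reads at median depth and all libraries together held 15, and the test was run with limma 3.58.1 in R 4.3.3 on log2(normalized reads + 1), each fit holding the 4 libraries of the groups compared, or 8 for a difference of responses. The splitting and the test were tested on simulated data. A floor of 3 reads per library was 1.81 to 4.50 normalized reads, and intervals are exact at 95%. The genes and lists were chosen with earlier results of these data known. The text names all 7 genes, up to 4 called genes with the largest change in another list, and the 3 genes most like each of the 7 by Pearson's r. Alternatives were median-of-ratios scaling, 0.5 or 10 reads added, no filter on low counts, a fit over all libraries of a host, an adjusted p under 0.05 and leaving out each pool. Some named results are not reported here.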

Additional observations from a re-analysis of the deposited data

Results flagged for a closer look

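For 5 values, the CPA/6d response of GL261(B6) differed from that of another tumor or host by limma's interaction test. The log2 difference of Pdgfra was -1.48 relative to GL261(scid) and -1.27 relative to LLC, with treated pools below untreated ones in GL261(B6) and above them in the other 2. Relative to B16F10 the difference was -1.45 for Cspg4, -1.33 for Sox10 and -2.73 for Olig2, the last of which rests on 0 to 1 reads in each B16F10 pool. With 2 pools in a group, no pool could be tested for standing apart from its group.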

How the results depend on the processing

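No paired analysis was possible because the split reads carry no pool numbers. Of 696 values of single genes under settings other than leaving out a pool, 668 kept their direction and side of the threshold, as did 372 of 396 when a pool was left out. In a fit over all libraries of the host, genes called lower in GL261(B6) went from 6 to 2, in treated GL261(B6) against B16F10 from 1 to 0 and in LLC from 0 to 1, the last also at an adjusted p under 0.05. With 10 reads added in that fit, a setting chosen after seeing the data, 6 stayed called in GL261(B6), and the difference from LLC went from 1 to 4 genes and that from B16F10 from 3 to 6. With 10 added in the usual fit these were 4 and 5, and at an adjusted p under 0.05 the difference from LLC gave 4. TMM within the libraries compared was also chosen after seeing the data. The difference of Cspg4 from LLC, 0.09, was -0.27 with 10 added, in both fits. Leaving out 1 pool at a time, it ranged from -0.26 (without the deeper treated LLC pool) to 0.44, that of Sox10 from LLC from -1.97 to 1.14 (also 0.59 without the deeper untreated LLC pool), that of Sox2 from B16F10 from -1.85 to 0.091 and Nkx2-2 under CPA/9d against CPA/6d from -0.39 to 0.033; none of these was called with all pools. Likewise, genes called lower numbered 5 to 6 in GL261(B6), 4 to 5 and 5 to 6 in GL261(scid) with CPA/6d and CPA/9d, 0 to 1 in LLC, 1 to 3 for the difference from LLC, 2 to 5 for that from B16F10 and 1 to 2 in untreated B16F10 against LLC. Those called higher numbered 2 to 6 in untreated GL261(B6) against LLC and against B16F10, 1 to 2 in B16F10 against LLC, and, in treated tumors, 1 to 5 against LLC and 2 to 6 against B16F10, where fewer genes pass the filter. Over all genes, an adjusted p under 0.05 moved calls in LLC from 254 higher and 119 lower to 425 and 189, in B16F10 from 815 to 1232 higher, for the difference from B16F10 from 860 and 667 to 1526 and 1032 (1346 higher with 10 added, 1494 with 10 added over all libraries, 571 without the shallower treated GL261(B6) pool) and for the host difference from 175 and 162 to 277 and 271 (105 higher over all libraries, 91 lower without the deeper GL261(scid) CPA/6d pool). The 107 genes higher with CPA/9d than CPA/6d were 24 over all libraries, 56 with 10 added there and 162 without the deeper CPA/9d pool, and the 3 lower were 6 to 30 without 1 pool. Leaving out a GL261(B6) pool brought genes called higher from 2412 to as few as 1400 (untreated against LLC), from 2718 to 1695 (untreated against B16F10), from 3254 to 1891 (treated against LLC) and from 3286 to 2183 (treated against B16F10). Genes with few reads are limited by depth, and for them the added reads set the size of a log2 value.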

Other observations

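In B16F10 tumors with CPA/6d, 2 of the 5 tested surface and secreted genes of glial precursors, 2 of 8 myelinating oligodendrocyte genes, 2 of 8 neural stem cell and astrocyte genes and 2 of 7 Schwann cell genes were called higher and 0 in these lists lower, where 6.51% of all genes tested were called higher and 2.83% lower. The rest were not called, among them Pou3f1 (log2 fold change -2.04 ± 0.48), Ugt8a (-0.43 ± 0.27), Nes (-0.15 ± 0.15), Cdh19 (-0.06 ± 0.16) and Fabp7 (0.06 ± 0.17), which were named after their values were seen. In the list of further glial precursor transcription factors the only call was Sox11, which was lower. It went from 2086 to 994 normalized reads on average (-1.08 ± 0.13). Gpr17 had 2 and 1 reads in the untreated and 237 and 129 reads in the treated B16F10 pools. S100b, a calcium-binding protein of glia and melanocytes, rose from 931 and 1068 normalized reads to 4036 and 3207 (log2 fold change 1.85 ± 0.13, adjusted p = 2.62e-05, limma). Gfap, the intermediate filament of astrocytes, rose from 115 and 121 to 588 and 490.2 (2.18 ± 0.15). Mbp, a myelin protein of both kinds of myelinating cell, rose from 1831 and 2021 to 4700.1 and 5231 (1.37 ± 0.10). It also had 802 and 801 in untreated LLC pools, where Mog, Cldn11, Opalin, Ugt8a and Omg had 0. In Gpr17, S100b, Gfap and Mbp both treated B16F10 pools lay above both untreated ones. In the same tumors the macrophage genes, none at 0, summed to 1773 to 2208 normalized reads in untreated and 4900.3 to 5890.5 in treated pools, with 7 of 10 called higher, and the cell cycle genes, none at 0, to 32337 to 33650 and 13249 to 14360, with 9 of 10 called lower, and their part in these values was not tested.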
